A study of Ovis aries with 15 samples.

Results

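The interferon response genes examined in the sheep mammary gland were 9 genes chosen by symbol: the antiviral effectors MX1, MX2, ISG15 and RSAD2, the transcription factors STAT2, IRF7 and IRF9, and the RNA sensors IFIH1 and DDX58. All 9 had a row among the 24691 features of the deposited table. Of these, 8 were found by their own symbol, and ISG15 was found under ISG17, its synonym in RefSeq.

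The data came from RNA-seq of needle biopsies of the mammary gland of primiparous Romney ewes about 2 years old, taken at day 135 of gestation (late pregnancy, 9 libraries) and again at day 15 after lambing (lactation, 6 libraries). The study asked how gene expression in the gland changes between these states. The ewes themselves were all kept on the same average feed and differed in the feed of their own dams, which were on an ad libitum, maintenance or sub-maintenance pasture allowance from day 21 to day 50 of gestation and on maintenance from then to day 140, so that each dam group had 3 late pregnancy and 2 lactation libraries. Each library was a pool of RNA, of 3 ewes by the study's methods and of 3 (late pregnancy) or 2 (lactation) by the labels, so differences among single ewes were averaged before sequencing, and p-values measure the spread between pools.

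Interferons are secreted when a cell meets a virus or another danger signal, and they act on neighbouring cells through receptors coupled to the kinases JAK1, JAK2 and TYK2. Type I interferon leads to a complex containing STAT2 and IRF9 that switches on a large set of antiviral genes, and IRF7 amplifies the response. IFIH1 (MDA5) and DDX58 (RIG-I) sense viral RNA in the cytoplasm and are themselves induced by interferon. MX1 and MX2 are dynamin-like GTPases, ISG15 is a ubiquitin-like protein that is conjugated to other proteins, and RSAD2 (viperin) makes an inhibitory nucleotide. In ruminants many of these genes are also known for their rise in the uterus and in blood leukocytes when the early conceptus secretes interferon tau.

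In the annotation of the table, whose genome the labels name as Oar_v3.1 and the study's methods as version 3.2, MX2 (chromosome 1, 259682252 to 259720739, 16 exons) and MX1 (chromosome 1, 259728322 to 259763183, 15 exons) lay next to each other with a gap of 7582 bases. ISG15 was a short gene of 2 exons (chromosome 12, 49537720 to 49538775), and RSAD2 had 6 exons (chromosome 3, 16603302 to 16621089). STAT2 (chromosome 3, 162923121 to 162937391) overlapped the row of IL23A, so their reads may not be fully separable: IL23A held 2290 exon reads in late pregnancy and 415 in lactation, against 6843 and 1690 for STAT2. IRF7 lay on chromosome 21 (49461057 to 49463554), IRF9 on chromosome 7 (20606992 to 20610859), IFIH1 on chromosome 2 (146343011 to 146404747) and DDX58 on the same chromosome (100413345 to 100459302). Every exon read of the 9 genes was placed uniquely.

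The late pregnancy libraries held 6471237 to 16898986 exon reads each and the lactation libraries 9014506 to 24001031. The 7 major milk protein genes took 13.7 to 23.4% of these reads before lambing and 71.3 to 75.8% after it. Values below are exon reads scaled to 1e6 reads per library (CPM) after TMM scaling, which aligns the bulk of the genes between libraries. Between the states, 9122 of 13345 tested genes (68.4%) were called at an edgeR adjusted p under 0.05, 35.2% of tested genes as lower and 33.1% as higher in lactation. The labelled tissue was borne out by its luminal epithelial markers, 6 of 8 of which were higher in lactation and none lower, with a summed level of 25257 to 51903 CPM in late pregnancy and 543573 to 696246 CPM in lactation. Nearly all of that sum was the milk protein genes CSN2 and LALBA, whereas KRT8 (40.2 and 44.2 CPM) and CDH1 (146.1 and 135 CPM) were not called and EPCAM was 1.23-fold higher.

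The antiviral effectors were lower in lactation than in late pregnancy in all 4 cases, and in none did the libraries of the 2 states overlap. Of the 9 members, 7 were called, 5 lower and 2 higher, a share to be read against the 68.4% of all tested genes. All 9 were called lower under scaling by total reads or as RPKM. Those settings called 13057 and 12909 of the 13345 tested genes, with 97.3 and 97.1% of the calls lower. Under TMM all 4 effectors were called lower by more than 2-fold, which held for 13.0% of tested genes. On the log2 scale of quantile-normalized RPKM with a pseudocount of 1 they were still called lower by limma, but by less than 2-fold (MX1 -0.79, MX2 -0.67, ISG15 -0.94 and RSAD2 -0.59). On the TMM scale the states did not overlap for 5 members (the effectors and IFIH1) and for 40.2% of all tested genes. In the deposited RPKM they did not overlap for any of the 9, and the share of all genes was not counted there. In these bulk samples, fewer cells of a type and less RNA per cell cannot be told apart.

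MX1 stood at 3.92, 6.40 and 9.01 CPM (lowest, median and highest library) in late pregnancy and at 1.33, 1.86 and 3.61 CPM in lactation. Its log2 change was -1.44 ± 0.23 (SE), or 2.72-fold lower, with an edgeR adjusted p of 1.6e-05. MX2, its neighbour, stood at 1.46, 3.69 and 5.10 CPM in late pregnancy and at 0.190, 0.989 and 1.35 CPM in lactation, a log2 change of -1.95 ± 0.32 (edgeR adjusted p = 2.3e-05). The highest lactation library and the lowest late pregnancy library came close to each other for both genes but did not cross.

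RSAD2 stood at 1.85, 2.59 and 3.64 CPM in late pregnancy and at 0.381, 0.668 and 1.23 CPM in lactation (log2 change -1.82 ± 0.26, edgeR adjusted p = 2.9e-06). ISG15 stood at 0.813, 1.34 and 2.43 CPM in late pregnancy and at 0.00, 0.489 and 0.789 CPM in lactation (log2 change -1.70 ± 0.37, edgeR adjusted p = 4.7e-04). One lactation library, ad libitum pool 2, held no ISG15 read, and a count of 0 allows up to 3 reads or 0.528 CPM there. The effectors were thinly covered in lactation: the 6 libraries together held 98 exon reads of MX1, 39 of MX2, 32 of RSAD2 and 20 of ISG15, against 1171, 682, 501 and 288 in the 9 late pregnancy libraries.

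**Figure D1:**
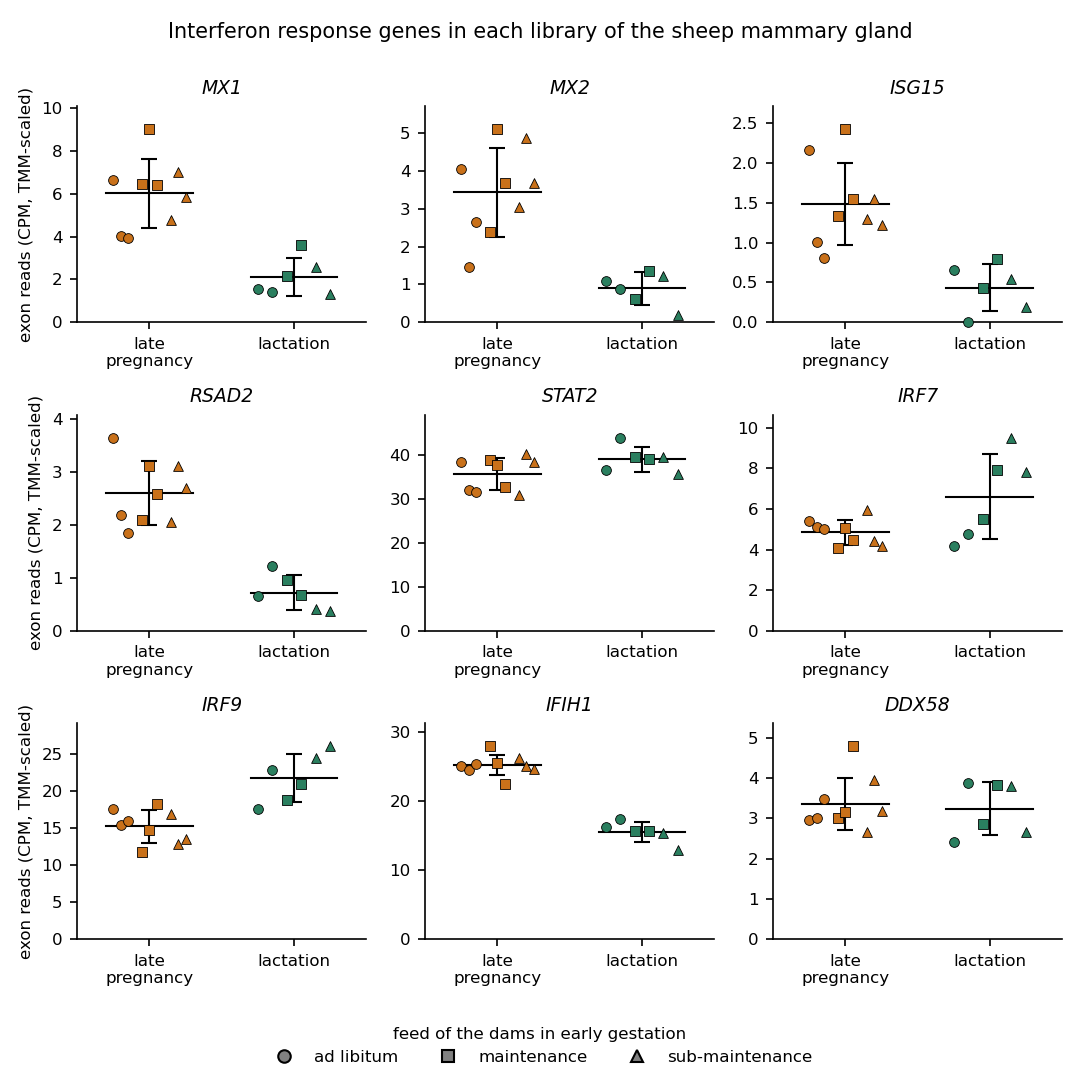
Exon reads in CPM of each of the 9 interferon response genes, by library; the vertical axes start at 0, points are single libraries shaped by the feed of the dams, the long line is the mean and the bar 1 SD (9 late pregnancy and 6 lactation libraries). The 4 antiviral effectors and IFIH1 are separated between the states without overlap, IRF9 and IRF7 reach higher in lactation on this TMM scale (lower under scaling by total reads), and STAT2 and DDX58 overlap throughout.

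Of the RNA sensors, IFIH1 fell and DDX58 was not called. IFIH1 was the steadiest member between late pregnancy pools. It stood at 22.5, 25.1 and 27.9 CPM in late pregnancy and 12.9, 15.7 and 17.4 CPM in lactation, a log2 change of -0.70 ± 0.07 (1.62-fold lower, edgeR adjusted p = 1.1e-08). DDX58 stood at 2.68, 3.17 and 4.79 CPM in late pregnancy and 2.42, 3.33 and 3.87 CPM in lactation. The interval of its log2 change ran from -0.36 to 0.30 (95% confidence, edgeR adjusted p = 0.92), so a change of either sign within those bounds remains possible.

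The transcription factors did not follow the effectors. IRF9 stood at 11.9, 15.4 and 18.3 CPM in late pregnancy and 17.6, 21.9 and 26.1 CPM in lactation, a log2 change of 0.52 ± 0.11 (edgeR adjusted p = 2.2e-04), with the ranges of the states just overlapping. IRF7 stood at 4.05, 5.02 and 5.93 CPM in late pregnancy and 4.18, 6.64 and 9.49 CPM in lactation, a log2 change of 0.46 ± 0.15 (edgeR adjusted p = 0.011). That call was lost without lactation sub-maintenance pool 1 (log2 change 0.33, edgeR adjusted p = 0.060). STAT2 stood at 30.9, 37.5 and 40.0 CPM in late pregnancy and 35.6, 39.2 and 43.8 CPM in lactation and was not called (log2 change 0.13, 95% interval -0.02 to 0.28, edgeR adjusted p = 0.114).

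The rise of IRF9 and IRF7 was called under TMM, DESeq2 and quantile-normalized RPKM, that of IRF7 was not under upper quartile scaling (0.31), and both turned to a fall when libraries were scaled by their total reads only (log2 -1.39 and -1.45) or taken as RPKM (-1.15 and -1.02 on the log2(RPKM + 1) scale). Under total reads the median of all tested genes moved from -0.03 to -1.94, and 97.3% of calls were lower instead of 51.6%. Measured from that median, IRF9 stood at 0.54, IRF7 at 0.49, STAT2 at 0.15 and DDX58 at -0.01. IFIH1 stood at -0.67 and the effectors between -1.91 and -1.42. These values were close to those under TMM, which follows from the method. Both fits share the same counts and differ only in scaling, so the closeness cannot decide between the scales. The effectors and IFIH1 were lower under every scaling, but on the log2(RPKM + 1) scale, where the pseudocount is large beside their levels, MX2 (0.05) and RSAD2 (0.16) were not below the median of all genes.

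A measure that needs no scaling between libraries is the number of reads of a member per 100 exon reads of STAT2 in the same library. It shows change relative to STAT2 only, and takes that member as the fixed point. STAT2 itself was lower under total reads (log2 -1.78), and its reads may not be fully separable from those of IL23A. MX1 stood at 16.8 ± 3.56 (SD, n = 9) in late pregnancy and 5.42 ± 2.24 (SD, n = 6) in lactation, and MX2, ISG15 and RSAD2 at 9.58, 4.15 and 7.26 against 2.28, 1.14 and 1.82. IFIH1 stood at 71.6 ± 7.80 and 40.0 ± 2.66. For these 5 genes the states did not overlap, and the two-sided exact permutation p adjusted over the 8 genes compared with STAT2 lay between 4.0e-04 and 6.4e-04. IRF9 stood at 43.7 ± 9.66 and 56.3 ± 9.83 (adjusted exact permutation p = 0.040), IRF7 at 13.9 ± 2.87 and 17.1 ± 5.72 (0.19) and DDX58 at 9.55 ± 2.19 and 8.29 ± 1.34 (0.25). For IRF9 the call did not hold without lactation sub-maintenance pool 1 (p = 0.070) or 2 (0.087), or without late pregnancy sub-maintenance pool 2 (0.052) or 3 (0.054) or maintenance pool 1 (0.052) or 2 (0.052), all by exact permutation without adjustment.

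Per kilobase of exon, the only scale on which levels of different genes can be set side by side, the order in late pregnancy was IRF9 (11.0 ± 1.58 CPM per kb), STAT2 (10.2 ± 1.07), IFIH1 (7.06 ± 0.405), IRF7 (3.34 ± 0.423), MX1 (2.47 ± 0.660), ISG15 (2.44 ± 0.854), MX2 (1.20 ± 0.413), DDX58 (1.19 ± 0.228) and RSAD2 (1.02 ± 0.238; SD, n = 9). The neighbours IRF9 and STAT2, MX1 and ISG15, MX2 and DDX58, and DDX58 and RSAD2 differed by less than their spread, the first of each pair being above the second in 5, 6, 5 and 7 of 9 libraries. In lactation the order was IRF9 (15.7 ± 2.37 CPM per kb), STAT2 (11.2 ± 0.825), IRF7 (4.54 ± 1.45), IFIH1 (4.35 ± 0.412), DDX58 (1.14 ± 0.234), MX1 (0.864 ± 0.362), ISG15 (0.715 ± 0.484), MX2 (0.313 ± 0.152) and RSAD2 (0.283 ± 0.129; SD, n = 6). There IRF7 was above IFIH1, and MX2 above RSAD2, in 3 of 6 libraries, and DDX58 and MX1, MX1 and ISG15, and ISG15 and MX2 also lay within their spread of each other, the first of each pair being above the second in 5 of 6 libraries. IFIH1 was above IRF7 in all 9 late pregnancy libraries.

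Intronic reads, taken for each gene as its total reads minus its exon reads, gave another readout of 5 members. In that comparison 58.0% of 10344 tested genes were called. MX2 was lower in lactation in introns (log2 change -1.87 ± 0.28, edgeR adjusted p = 4.6e-06) as in exons, from 9.96, 21.8 and 36.3 CPM to 4.91, 6.30 and 7.39 CPM of intronic reads. IFIH1 was lower (log2 change -0.57 ± 0.18, edgeR adjusted p = 0.010), while STAT2 (-0.01 ± 0.19, 0.97) and IRF9 (0.19 ± 0.15, 0.29) were not called. Scaled by total reads, 4 of the 5 members were called lower in introns and 0 higher. STAT2 then stood at -0.62 (edgeR adjusted p = 0.014) and IRF9 at -0.42 (0.040). MX1, RSAD2 and IRF7 did not pass the filter, and ISG15 had no intronic read.

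DDX58 differed between the 2 readouts. Its intronic reads rose from 8.96, 16.3 and 24.8 CPM in late pregnancy to 21.5, 32.9 and 41.7 CPM in lactation (log2 change 0.97 ± 0.20, edgeR adjusted p = 1.9e-04), although its exon reads were not called; scaled by total reads, the intronic change was 0.37 (edgeR adjusted p = 0.12). The share of its reads that lay in introns, which needs no scaling between libraries, was 37.7 ± 10.6% (SD, n = 9) in late pregnancy, from 21.5 to 52.9%, and 55.8 ± 6.01% (SD, n = 6) in lactation, from 48.8 to 64.1% (two-sided exact permutation p = 0.0022, adjusted over 5 genes 0.011). The ranges overlapped, and the difference was present among libraries named for lane 7 (43.5 and 55.7%) and for lane 8 (33.0 and 56.0%). Counting reads on the whole gene made DDX58 higher in lactation (log2 change 0.45, edgeR adjusted p = 5.6e-04). Over all reads of a library the intronic share was 14.4 to 16.1% in late pregnancy and 5.85 to 13.2% in lactation. That total is weighted by the milk protein genes, which took most exon reads in lactation, so it does not show how single genes changed. The other 4 genes differed by 6.72 percentage points or less, with adjusted exact permutation p from 0.13 to 0.64. Without lactation maintenance pool 2 the share of MX2 was 9.36 points higher in lactation (unadjusted exact permutation p = 0.014), and without late pregnancy maintenance pool 2 or 3 that of IRF9 was lower in lactation (0.014 and 0.035). The counting was not stated to use strand, so a transcript within the introns on either strand would be included.

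**Figure D2:**
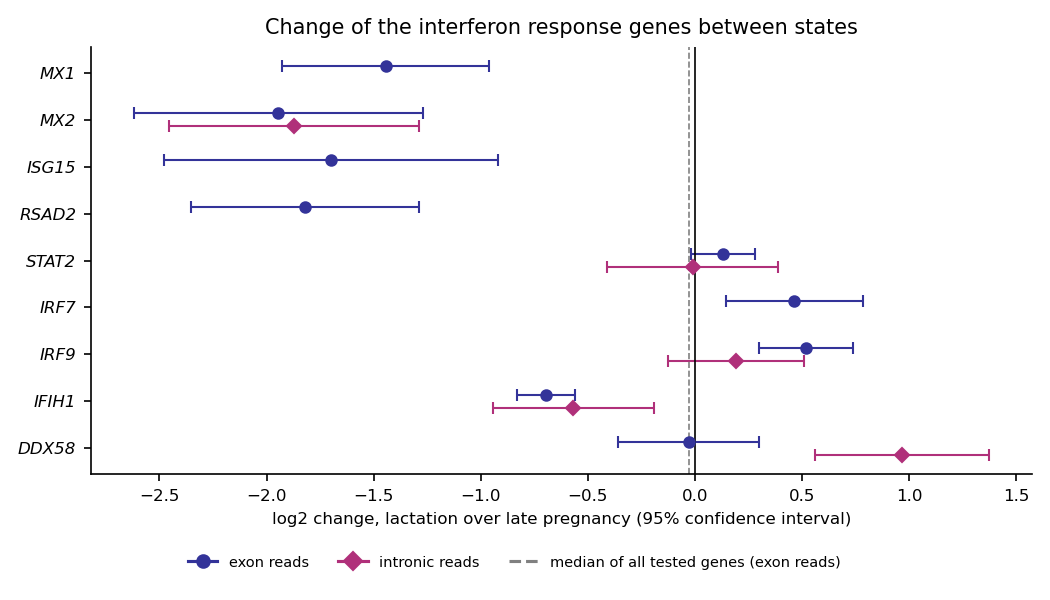
Log2 change of each member, lactation over late pregnancy, with its 95% confidence interval, from exon reads (circles) and from intronic reads (diamonds, the 5 members that passed the filter); the dashed line is the median exon change of all tested genes (-0.03). MX2 and IFIH1 are lower in both readouts, and DDX58 is near 0 in exons and at 0.97 in introns.

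**Figure D3:**
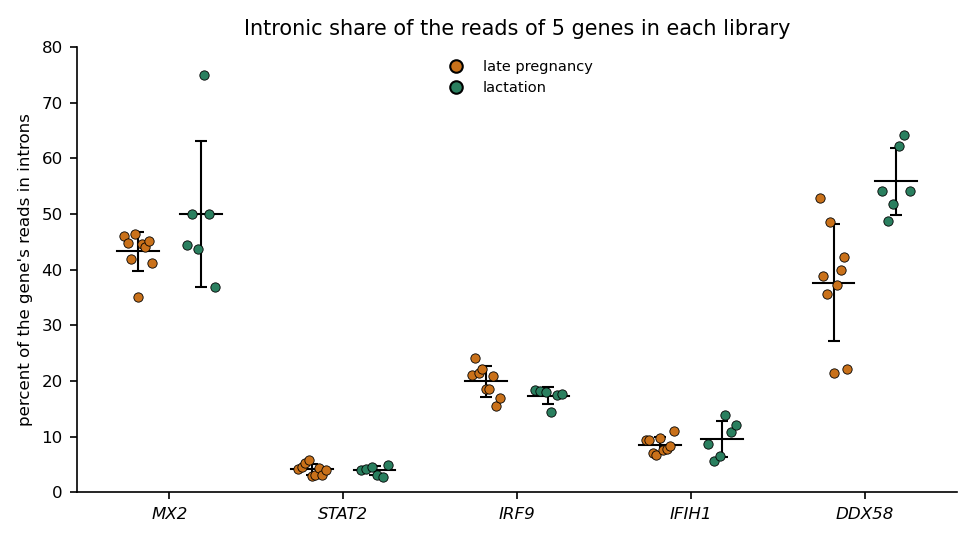
Percent of a gene's reads that lie in its introns in each library, for the 5 members with enough intronic reads; the vertical axis starts at 0, lines are means and bars 1 SD (9 late pregnancy and 6 lactation libraries). DDX58 lies at 21.5 to 52.9% in late pregnancy and at 48.8 to 64.1% in lactation, whereas STAT2 and IFIH1 overlap widely, IRF9 overlaps in part (15.5 to 24.2% and 14.4 to 18.4%) and the lactation values of MX2 rest on few reads.

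Among the other genes of the pathway, those induced by interferon were mostly lower in lactation, while receptors and kinases were mostly higher under TMM and lower under total reads or as RPKM. Of 30 other antiviral effectors tested, 24 were called lower, 3 higher and 3 were not called. Among all tested genes 35.2% were lower and 33.1% higher. The median log2 change of the 30 was -1.13, against -0.03 for all tested genes. GBP5, a guanylate-binding protein, changed most (17.4 ± 1.91 to 3.07 ± 0.724 CPM, log2 -2.46, edgeR adjusted p = 1.2e-12), followed by IFI6 (log2 -1.88), IFIT3 (-1.75) and IFI44L (-1.64). The 3 genes called higher were EIF2AK2, the kinase PKR (9.50 ± 1.53 to 19.4 ± 2.29 CPM, log2 1.02), OAS1 (0.71) and the RNA editing enzyme ADAR (0.51). OAS1 shares reads with its paralogs (50.7% of its reads were unique), and its call was lost with unique reads only. EIF2AK2, OAS1 and ADAR turned to lower when libraries were scaled by total reads or taken as RPKM.

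All 4 genes of the ISG15 conjugation pathway were lower beside ISG15 itself: the activating enzyme UBA7 (log2 -1.33), the conjugating enzyme UBE2L6 (-1.28) and the ligases HERC5 (-1.05) and HERC6 (-1.62), each with an edgeR adjusted p of 1.2e-04 or less. HERC5 was not called with whole-gene reads. The share called lower among all tested genes was 35.2%. The chemokines CXCL9 and CXCL10, which attract T cells, were the most reduced of all the named genes (log2 -2.65 and -3.29). Of the CXCL10 reads 45.8% were unique.

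Among 5 other interferon regulatory factors tested, 4 were lower and none higher, against 35.2% lower and 33.1% higher of all tested genes. IRF1 fell from 33.4 ± 4.41 to 6.02 ± 1.67 CPM (log2 -2.41, edgeR adjusted p = 4.1e-12). IRF8 (-1.09), IRF3 (-0.47) and IRF2 (-0.43) were lower too, and IRF5 was not called (0.24).

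Of 7 receptors and kinases, 5 were higher: IFNGR2 (89.1 ± 5.89 to 241 ± 17.6 CPM, log2 1.43), JAK1 (1.19), JAK2 (0.99), TYK2 (0.54) and IFNAR2 (0.40). Among all tested genes 33.1% were higher and 35.2% lower. IFNGR1 was lower (-0.57), and IFNAR1 was not called (0.00, edgeR adjusted p = 0.987). All 5 of the higher calls turned to lower when libraries were scaled by total reads or taken as RPKM. Only 3 of the 10 listed interferon genes had a row. Those without one, among them IFNB1, IFNA, IFNW1, IFNT and IFNL3, were not measured. Of the 3, IFNG had 8 exon reads in all 15 libraries together, IFNE 1 and IFNK 0. A count of 0 allows up to 3 reads, and none of the 3 could be tested.

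Other sensors and adaptors moved both ways, with 5 of 12 lower, 3 higher and 4 not called. Of all tested genes 35.2% were lower and 33.1% higher, shares to be set beside this count and that of the brakes below. The nucleic acid sensors ZBP1 (log2 -1.53) and TLR3 (-1.06) were lower, and the adaptors MYD88 (1.39) and MAVS (0.50) and the ubiquitin ligase TRIM25 (1.22), which acts on DDX58, were higher under TMM and lower under total reads and RPKM. Of 6 brakes of the pathway, 2 were higher and 4 not called. RNF125, a ubiquitin ligase of DDX58 and IFIH1, was higher (log2 1.78, edgeR adjusted p = 2.0e-06) at low levels (0.554 ± 0.146 to 1.80 ± 0.727 CPM), with a log2 change of -0.12 under total reads and -0.06 as RPKM.

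**Figure D4:**
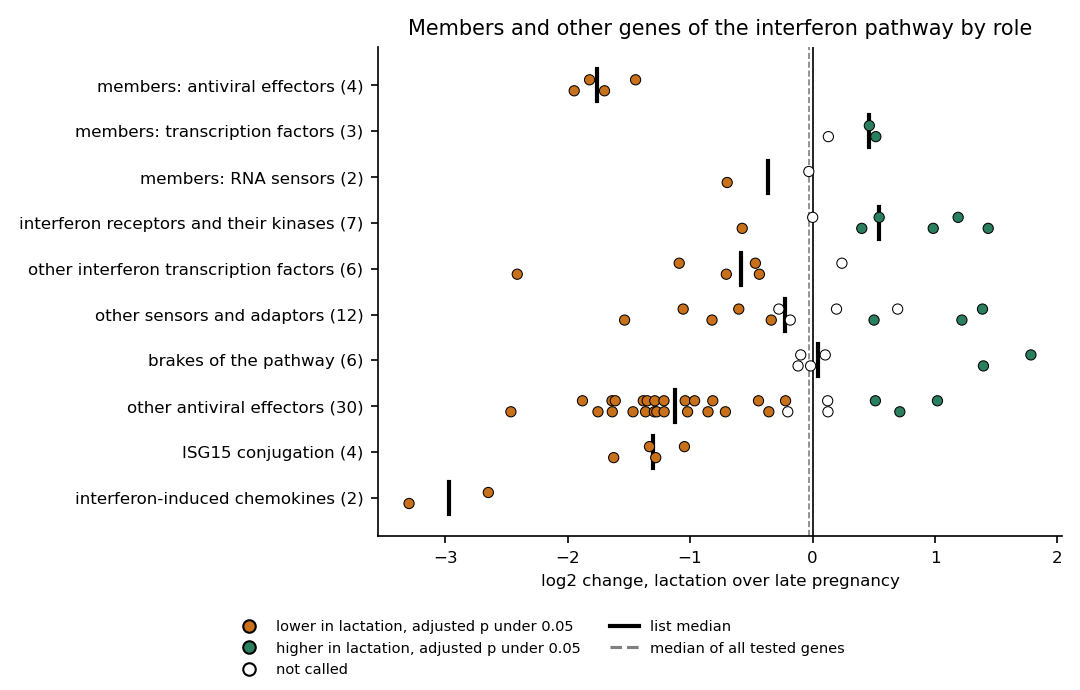
Log2 change, lactation over late pregnancy, of each tested gene in the lists of the interferon pathway, with the number of genes in brackets; colours show the edgeR call, thick marks the list median and the dashed line the median of all tested genes (-0.03). The effectors lie at a median of -1.76 and the other antiviral effectors at -1.13, while receptors and kinases lie at 0.54 under TMM, each of them being below 0 when scaled by total reads.

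Markers of other cell types moved between the states as well. Their counts are to be read against 35.2% lower and 33.1% higher among all tested genes. All 6 T cell markers were lower in lactation, with summed levels of 38.7 to 61.4 CPM in late pregnancy and 12.7 to 19.3 CPM in lactation. Lower too were 4 of 6 macrophage markers (142 to 191 and 70.5 to 101 CPM). So were 3 of 4 general leukocyte markers (128 to 184 and 94.8 to 145.7 CPM). The largest part of the leukocyte sum was LCP1 (mean 71.2 and 77.4 CPM), which was not called. The states did not overlap for the other leukocyte markers, PTPRC, CORO1A and CD53. Also lower were 5 of 6 fibroblast markers (1311 to 2092 and 618 to 998 CPM) and 3 of 4 endothelial markers (187 to 256 and 132 to 187 CPM). Of the markers of plasmacytoid dendritic cells, a main source of type I interferon, 1 of 3 was lower and 1 higher (37.8 to 44.4 and 24.5 to 34.2 CPM). Most of that sum was the lower gene TCF4 (32.9 to 40.4 and 17.9 to 25.0 CPM). IRF4 was higher (log2 1.24), and IL3RA was not called. The listed markers CLEC4C and LILRA4 had no row, so the sum mainly follows TCF4 and cannot show how these cells changed. Of the B and plasma cell markers 1 of 3 was lower and 2 higher (28.8 to 75.2 and 61.2 to 151 CPM), and of the neutrophil markers 1 of 3 was lower and 1 higher (1.19 to 2.40 and 5.49 to 16.8 CPM). The higher neutrophil sum was carried by the myeloperoxidase gene MPO (0.0379 to 12.9 CPM, log2 7.89, edgeR adjusted p = 9.3e-13), while S100A9 was lower (log2 -1.08) and CSF3R was not called. Of the myoepithelial markers 2 of 6 were lower and 2 higher, and the 2 adipocyte markers tested were not called. The part of these cells in the changes of the interferon response genes was not tested.

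Dam nutrition was compared within late pregnancy and by state, because the labels name it. Of the 13747 genes tested over the 3 late pregnancy groups, 0.0% were called, and of the members none (571 genes had an unadjusted p under 0.05, and DESeq2 called 20). Sub-maintenance against ad libitum gave 0.0% as well (471 unadjusted, 7 by DESeq2), as did the interaction of dam group with state over 13345 genes (0.0%; 876 unadjusted, 21 by DESeq2). No member was called by either tool in any of the 3 tests. MX1 stood at 4.86 ± 1.54 CPM in the ad libitum group, 7.30 ± 1.49 in the maintenance group and 5.88 ± 1.13 in the sub-maintenance group (SD, n = 3 each), and the 3 groups overlapped. The log2 difference of sub-maintenance over ad libitum was 0.24 for MX1 (95% interval -0.26 to 0.74) and 0.43 for MX2 (-0.31 to 1.17). With 3 pools a group, both intervals spanned no difference as well as larger ones.

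The effectors and IFIH1 were lower in lactation within each dam group and among libraries of either lane named in the column headers. IRF7 was less even. Its mean log2(CPM + 1) differed between the states by -0.18 in the ad libitum group, 0.46 in the maintenance group and 0.73 in the sub-maintenance group, and by -0.03 among libraries named for lane 7 and 0.70 among those for lane 8. The rise of IRF7 thus did not hold in the ad libitum group or in lane 7, and 2 of the 3 lactation libraries in lane 7 were the ad libitum ones. Its interaction of dam group with state had an edgeR unadjusted p of 0.015 and an adjusted p of 0.735.

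Within late pregnancy the effectors had a larger SD between pools than most tested genes. Their pairwise correlations were positive, and after adjustment only MX1 with ISG15 passed, by Spearman rho but not by Pearson r. The SD of log2 CPM over the 9 libraries was 0.39 for MX1, 0.55 for MX2, 0.47 for ISG15 and 0.32 for RSAD2, and 81.2 to 95.5% of tested genes had a smaller one. Low counts carry more counting error, and among the 500 genes of most similar level 91.0% had a smaller SD than MX2 and 90.6% than MX1, but only 69.2% than ISG15 and 51.6% than RSAD2. IFIH1, with an SD of 0.08, was steadier than all but 8.80% of tested genes.

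The levels of the 4 effectors summed to 8.68 CPM in late pregnancy ad libitum pool 2, 9.24 CPM in ad libitum pool 3 and 11.2 to 14.2 CPM in 4 others. The 3 highest pools were at 16.5 CPM (ad libitum pool 1), 16.6 CPM (sub-maintenance pool 2) and 19.7 CPM (maintenance pool 2). The highest and the lowest pools thus both included the ad libitum group. Across the 9 libraries the 6 pairs of effectors had Pearson r from 0.72 to 0.90 (median 0.77) and Spearman rho from 0.78 to 0.95. The exact permutation p of r was 0.0015 to 0.029 for these 6 pairs. After adjustment over all 36 pairs of members, none for r was under 0.05 (lowest 0.053, for MX1 and ISG15). For rho the adjusted exact permutation p was 0.013 for MX1 and ISG15 and 0.10 for the other effector pairs. Without the 2 libraries farthest from the median, r was 0.61 to 0.86. Lanes held 4 and 5 of these libraries, too few for a value within a lane. In lactation the same pairs had r from -0.46 to 0.65 over 6 libraries with few reads, and no pair passed (lowest adjusted exact permutation p over the 36 pairs 0.64).

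The pool-to-pool profile of the effectors was most like that of other antiviral effectors among the lists of the pathway. Correlated with the mean of the 4 effectors over the 9 late pregnancy libraries, the 30 other antiviral effectors had a median r of 0.55 against -0.00272 for all other tested genes, and 9 of them (30.0%) had r above 0.7, against 1.66% of tested genes. OAS2 (r = 0.95) had the highest r of the 13336 genes outside the members, and IFIT1 (0.91) and TRIM21 (0.85) came next within the list. These r are descriptions over 9 pools of ewes that share one normalization. OAS2 was not called between the states (6.59 ± 1.82 to 7.22 ± 1.28 CPM, log2 0.12, edgeR adjusted p = 0.55), with a 95% interval of -0.25 to 0.49, whereas IFIT1 (log2 -0.85) and TRIM21 (-0.36) were called lower. Of the members, STAT2 had r of 0.70, and IRF7 (-0.10), IRF9 (-0.02), IFIH1 (-0.13) and DDX58 (0.19) were near 0.

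Of 14 properties of the late pregnancy libraries, none tracked the effector mean at an adjusted exact permutation p under 0.05 (lowest 0.70 for r and 0.57 for rho). General leukocyte markers had the largest rho (0.62, exact permutation p = 0.086). Their r was 0.44 (exact permutation p = 0.23), and 0.47 without the 2 farthest libraries. T cell markers had r = 0.60 (rho = 0.53, exact permutation p = 0.087 and 0.15; 0.31 without the 2 farthest libraries), endothelial markers r = -0.58 (rho = -0.55, exact permutation p = 0.10 and 0.13; -0.50 without the 2 farthest libraries) and exon reads per library r = 0.47 (rho = 0.27, exact permutation p = 0.19 and 0.49; -0.31 without the 2 farthest libraries).

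**Figure D5:**
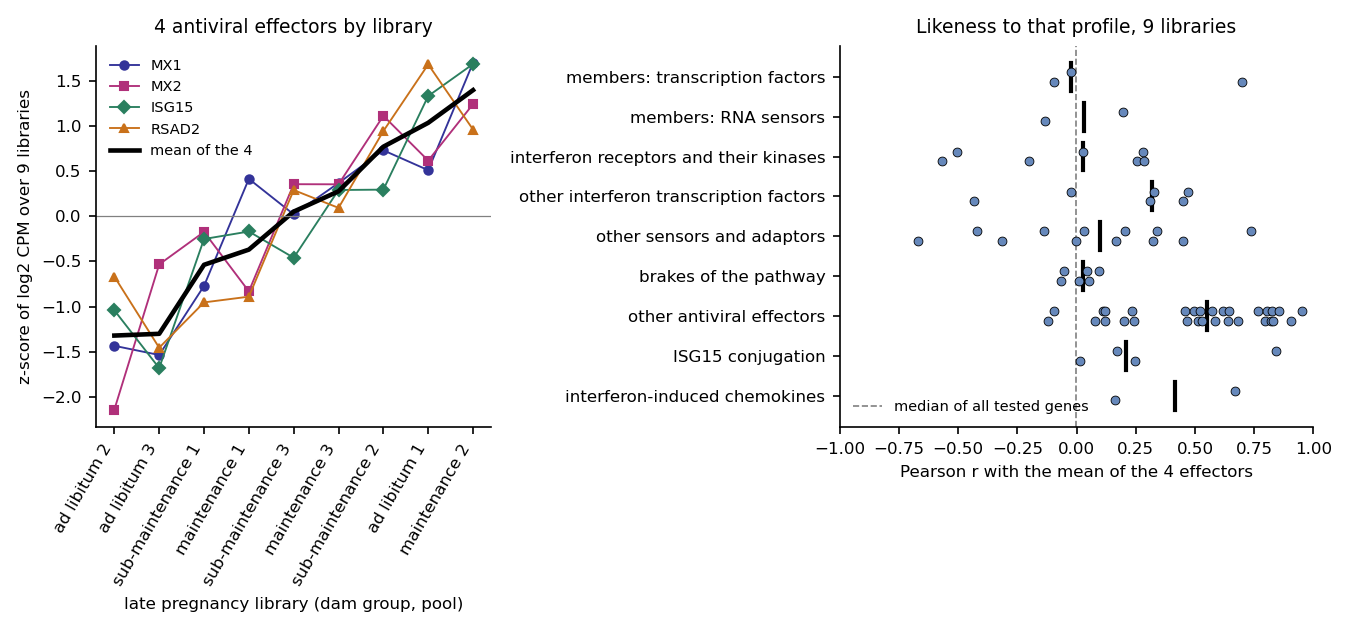
Left, z-scores of log2 CPM of the 4 antiviral effectors over the 9 late pregnancy libraries, ordered by their mean (thick line). Right, Pearson r of each tested pathway gene with that mean over the same libraries, by list, with thick marks for list medians and a dashed line for the median of all tested genes; the other antiviral effectors reach 0.95 with a median of 0.55, while brakes, receptors and sensors centre near 0.

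Over all 15 libraries, with the mean of each state removed, the genes whose profile was most like a single member were not listed genes of the pathway. The closest were TSHZ1 for MX1 (r = 0.86), LOC101115145 for MX2 (0.89), C22H10orf88 for ISG15 (0.93), HEATR1 for RSAD2 (0.91), INVS for STAT2 (0.84), KAT8 for IRF7 (0.88), KIAA0513 for IRF9 (0.88), PDE9A for IFIH1 (0.87) and ARL6IP1 for DDX58 (0.89). For the mean of the 9 members GANC (0.86) and HCLS1 (0.85) were closest. For the mean of the 4 effectors LOC101115145 (0.82) was closest, and 2 of the 10 closest were listed genes of the pathway, IFI44 (0.79) and CMPK2 (0.78). Each was the highest r among all tested genes over 15 libraries, and in lactation the effectors' profiles rest on few reads.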

How the data were processed

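Members and gene lists were chosen with earlier results of these data known. The authors mapped 100 bp paired Illumina reads in CLC Genomics Workbench (version not given in the sources used here), combined 2 lanes per library, and deposited 1 table. Its counts are the authors' raw numbers of exon reads, whole-gene reads and their uniquely placed subset per gene. The deposited RPKM and the authors' quantile-normalized RPKM served as alternatives. Exon length, exon number, transcript number and position are other values that the authors deposited per gene. The authors' columns of fold changes and p-values were not used.

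Exon reads (whole-gene reads for 5583 features without a transcript) were tested with edgeR 4.0.16 in R 4.3.3: TMM scaling, filterByExpr (minimum 10 reads), quasi-likelihood F-test, Benjamini-Hochberg adjustment over all tested genes, calls under 0.05. Intronic reads (whole-gene less exon reads) were tested likewise. Log2 values are lactation over late pregnancy, and errors are SE of the fit. DESeq2 1.42.0 and limma 3.58.1 gave alternatives. Correlations used log2 CPM with a prior count of 1. Single values were compared by exact permutation over 5005 splits (smallest p 2.0e-04) with Python 3.11.15 and scipy 1.17.1. The fits were also run on simulated counts with few changed genes and a mean profile shared by all libraries, which cannot test the scaling between these states.

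Depth was 6471237 to 24001031 exon reads per library. Reads carried no molecular identifiers, so limits from a count of 0 cover counting error only. Libraries were grouped by the labels' physiological status and dam feed. Column headers give 1 lane per library although 2 were combined, so lane served as a check only. Libraries with the same dam group and pool number did not deviate together (r -0.03 to 0.09 for 6 pairs), so numbers were not taken as pairs. By the study's methods the ewes sampled in lactation had also been sampled in late pregnancy. Pools of different states may thus share ewes whatever their number. The tests between the states treated all libraries as independent, which could not be checked. Named genes were all members, all tested receptors, kinases and other transcription factors, and in other lists the 4 called genes of largest change among those averaging 1 CPM or more, plus those against their list; OAS2, IFIT1, TRIM21, IFI44, CMPK2 and the single cell type markers were named after their values were seen. Gene names absent from the table were looked up among RefSeq synonyms. Of 91 other pathway genes, 75 had a row and 67 were tested. Some listed genes are not reported here by name.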

Additional observations from a re-analysis of the deposited data

How the results depend on the processing

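The number of members called between the states was 7 of 9 in the reported fit and ranged from 6 to 9 under the other scalings, units, covariates, read classes and filters. The exception was requiring at least 10 reads in every library, which removed the 4 effectors and left 3 of 5 called. For intronic reads that filter left 1 of 2 called, against 3 of 5. These counts are to be read against all tested genes. Of 13345, 9122 were called in the reported fit, 9410 under upper quartile scaling, 13057 under total reads and 12909 as RPKM. The filter of at least 10 reads left 7216 of 10079 called. For intronic reads the reported fit called 58.0% of 10344. Leaving out 1 library gave 6 to 7 members called (3 to 4 for intronic reads), and the dam nutrition tests called 0 members under every alternative run. With dam group and pool number as a replicate block the same 7 members were called (IRF7 log2 0.41, edgeR adjusted p = 0.038; 8458 genes in all); no paired value changed a call of a member, and 2 of 6 lactation libraries correlated best with the late pregnancy library of their own number. Upper quartile scaling lost IRF7 (0.31, adjusted p = 0.070), and IFNAR2 with it (0.25). It made 63.7% of calls lower.

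Scaling by total reads only and log2(RPKM + 1) lowered nearly all genes (97.3 and 97.1% of calls lower) and reversed STAT2 (-1.78 and -1.47), IRF7 (-1.45 and -1.02), IRF9 (-1.39 and -1.15; introns -0.42 under total reads), IFNAR1 (-1.91 and -1.37), IFNAR2 (-1.51 and -0.97), IFNGR2 (-0.47 and -0.35), JAK1 (-0.72 and -0.59), JAK2 (-0.92 and -0.65), TYK2 (-1.36 and -1.10), IRF5 (-1.66 and -1.0), MYD88 (-0.52 and -0.37), TRIM25 (-0.69 and -0.46), MAVS (-1.40 and -1.18), RNF125 (-0.12 and -0.063), EIF2AK2 (-0.89 and -0.63), OAS1 (-1.19 and -0.70) and ADAR (-1.39 and -1.11). In introns STAT2 was called lower under total reads (-0.62). Whole-gene reads turned DDX58 to 0.45. By construction neither unit corrects for the milk protein genes that fill the lactation libraries. Alternatives chosen after seeing the data left out each library for the measures that need no scaling (DDX58 intronic share 16.1 to 20.1 percentage points higher in lactation) and for the effector pairs (median r 0.73 to 0.86). Depth limits the effectors in lactation, where each held 98 reads or fewer in 6 libraries.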
